A study of Mus musculus with 39 samples.

Results

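RNA of fractions 10 and 11 of a sucrose gradient of mouse liver was compared with RNA of the next, denser fractions 12 and 13. The homogenate came from livers of wild-type FVB female mice, was made with beads and without detergent, and was cleared of nuclei by centrifugation before it was layered on a gradient of 10 to 50% sucrose. All libraries have this one genotype and no treatment, and the age of the mice and the number of livers per gradient are not given in the sources used here. The gradients are 2 biological replicates, and each fraction of a gradient has 1 library. The comparison therefore rests on 8 of the 39 libraries of the series, which are fractions 10, 11, 12 and 13 of each gradient. Values are TPM, the length-corrected share of an RNA among all RNAs of its library. A gene's log2(TPM + 1) was averaged over fractions 10 and 11 and over fractions 12 and 13 of each gradient, and its change is the second mean minus the first. Fractions of the 2 gradients were matched by number, and whether a number stands for the same density in both is not given in the sources used here. Genes were kept if they were in both tables and had a mean TPM of at least 1 over the 8 libraries, which left 11373 of 13230 genes. Of these, 10803 are protein-coding.

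An RNA sediments with what it is bound to. A messenger RNA (mRNA) that carries few ribosomes moves slowly, one that carries many moves faster, and a short coding sequence has room for few ribosomes. An mRNA that is translated at the endoplasmic reticulum (ER) or at mitochondria can also travel with pieces of membrane, because no detergent was used. In hepatocytes, ER-bound translation makes most plasma proteins and drug-metabolizing enzymes, while proteasome subunits, glycolytic enzymes and cytosolic chaperones are made on free ribosomes, and most mitochondrial proteins are made in the cytosol and imported.

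The RNAs with the largest falls from fractions 10-11 to 12-13 included mRNAs with very short coding sequences. The 4 shown here have the fewest codons among the 10 largest falls of protein-coding genes past the threshold of the test (an adjusted p under 0.05) with a mean TPM of at least 10. Each is the whole coding strand from the start codon to the stop codon of the transcript in GENCODE release M21 of mouse build GRCm38 (mm10), with the start and stop codons in capitals.
Smim11: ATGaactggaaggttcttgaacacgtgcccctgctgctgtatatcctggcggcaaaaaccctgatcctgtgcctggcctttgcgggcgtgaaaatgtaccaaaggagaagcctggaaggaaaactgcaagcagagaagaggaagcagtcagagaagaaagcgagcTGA
Uqcr10: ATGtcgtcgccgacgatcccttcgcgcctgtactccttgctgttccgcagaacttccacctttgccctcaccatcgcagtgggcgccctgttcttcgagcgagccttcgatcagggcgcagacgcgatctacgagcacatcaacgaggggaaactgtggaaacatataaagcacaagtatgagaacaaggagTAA
Polr2l: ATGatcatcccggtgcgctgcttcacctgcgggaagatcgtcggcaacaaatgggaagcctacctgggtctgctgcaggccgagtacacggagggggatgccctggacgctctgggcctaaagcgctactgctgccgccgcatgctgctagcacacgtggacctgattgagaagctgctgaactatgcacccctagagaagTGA
Gng5: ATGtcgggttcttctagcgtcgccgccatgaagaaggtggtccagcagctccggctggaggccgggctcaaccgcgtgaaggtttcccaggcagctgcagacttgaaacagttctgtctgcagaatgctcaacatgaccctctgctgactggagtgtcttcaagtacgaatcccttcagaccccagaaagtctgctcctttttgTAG
Smim11, which encodes a small integral membrane protein, has 55 codons in 2 coding exons at chr16:92305386-92310956 on the plus strand. Uqcr10, a small subunit of respiratory complex III, has 64 codons in 2 coding exons at chr11:4702176-4704306 on the minus strand. Polr2l, a small subunit shared by the nuclear RNA polymerases, has 67 codons in 2 coding exons at chr7:141473296-141475122 on the minus strand. Gng5, the gamma-5 subunit of heterotrimeric G proteins, has 68 codons in 2 coding exons at chr3:146499940-146503385 on the plus strand. Codon counts leave out the stop codon. Their transcripts are of very unequal length, from 434 bases for Uqcr10 to 2419 bases for Gng5.

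These 4 RNAs had lower TPM in every library of fractions 12-13 than in any library of fractions 10-11. Uqcr10 had 2259, 1375, 792 and 481 TPM in fractions 10 to 13 of gradient 1, and 2506, 1634, 937 and 612 TPM in gradient 2. Its change was -1.46 (SE 0.21, n = 2 gradients), a level 2.76-fold lower on the log2(TPM + 1) scale (limma adjusted p = 0.00603). All changes below are on this scale, which understates the change of genes with low TPM. Polr2l had 119, 84.0, 43.3 and 21.9 TPM in gradient 1 and 138, 89.3, 50.7 and 33.2 TPM in gradient 2 (change -1.54, limma adjusted p = 0.00462). Gng5 went from 867 and 484 TPM to 266 and 139 TPM in gradient 1, and from 789 and 491 TPM to 333 and 233 TPM in gradient 2 (change -1.45, limma adjusted p = 0.00674). Smim11 had 126 and 87.4 TPM in fractions 10 and 11 of gradient 1 against 51.5 and 22.7 TPM in fractions 12 and 13, and in gradient 2 it had 118 and 76.0 TPM against 36.0 and 38.0 TPM (change -1.46, limma adjusted p = 0.0179). Smim11 did not pass when fraction 13 of gradient 1 was left out (limma adjusted p = 0.0801), and the other 3 did. That fit sets fraction 12 alone against fractions 10-11 in gradient 1, which by itself makes a steady decline or rise smaller. In all 4 RNAs TPM was already lower in fraction 11 than in fraction 10, so the border between the pairs lay within a decline and not at its start.

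Over all genes, 563 of the 11373 tested passed an adjusted p under 0.05 in limma (4.95%), and many more of them were lower than higher in fractions 12-13. RNAs of 524 genes were lower (4.61%) and RNAs of 39 were higher (0.343%). At an unadjusted p under 0.05 in limma, 1619 of the 11373 genes were lower and 552 higher, which is the background for such counts in the lists below. All 563 changed in the same direction in both gradients, and the median size of their change was 0.918. All fractions of 1 gradient were cut from 1 tube loaded with 1 homogenate, which pairs the libraries by gradient. With the gradient as a block, 2699 genes passed (23.7%), of which 1897 were lower (16.7%) and 802 higher (7.05%), and all 563 were among them. With gradient 2 shifted by 1 fraction to either side, 0 genes passed in limma without the block (1054 and 1484 at an unadjusted p under 0.05), and 0 passed in 3 of the 4 fits that left 1 gradient out of 1 pair (1356 to 1509 at an unadjusted p under 0.05). The fit without gradient 2 in fractions 12-13 gave 174 calls. Because the block changes the counts this much, counts with the block are given beside the counts of genes and lists without it. The 4 libraries of fractions 12-13 were all below the 4 of fractions 10-11 for 1581 genes (13.9%) and all above them for 839 genes (7.38%).

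TPM are shares, so that a gain of one RNA in a library lowers all others, and the excess of falls moved with the scaling. The median change of all genes was -0.109 in gradient 1 and -0.0997 in gradient 2. After quantile normalization the median of all genes was 0.05, and 108 of 459 called genes were higher (23.5%, against 6.93% of calls without it). With TPM rescaled without the 50 most abundant genes, 112 of 592 called genes were higher (18.9%). The library of fraction 13 of gradient 1 stood apart in its share of Rn45s, the precursor of ribosomal RNA. Rn45s had 22357, 30169, 19831 and 54250 TPM in fractions 10 to 13 of gradient 1, and 24265, 16333, 16214 and 28412 TPM in gradient 2. Without that library, 245 genes passed without the block, 234 lower and 11 higher. The part of Rn45s in the other values was not tested. Across genes, log2(TPM + 1) of the same fraction had a Pearson r of 0.961 to 0.966 between the gradients. TPM holds no counts, so the depth of the libraries is unknown here, and 10860 to 11580 genes had TPM over 1 in each of the 8.

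The change followed coding length, which the choice of fractions and genes did not use. Of 213 protein-coding genes with fewer than 100 codons, 91 were lower in fractions 12-13 (42.7%) and none was higher in limma, where 138 were lower and 0 higher at an unadjusted p under 0.05. With the block, 147 were lower (69.0%) and 2 higher. Their median change was -0.87, with -0.95 in gradient 1 and -0.80 in gradient 2, beside -0.11 for all genes. From 100 to under 200 codons, 152 of 1278 genes were lower (11.9%) and 19 higher (1.49%), and 395 (30.9%) and 120 (9.39%) with the block, with a median change of -0.31. From 200 to under 400 codons, 137 of 3142 were lower (4.36%) and 16 higher (0.509%), near the 4.61% and 0.343% of all genes, and with the block 550 were lower (17.5%) and 316 higher (10.1%). From 400 to under 800 codons, 92 of 3999 were lower (2.30%) and 4 higher, and 479 (12.0%) and 295 (7.38%) with the block. Of the 2154 genes with 800 codons or more, 25 were lower (1.16%) and none was higher in limma, with 150 lower and 33 higher at an unadjusted p under 0.05. With the block 201 were lower (9.33%) and 66 higher (3.06%), against 16.7% and 7.05% of all genes. The medians of the classes from 200 codons upward lay between -0.10 and -0.04, and after quantile normalization they were positive, 0.05 to 0.11, while the class under 100 codons kept a median of -0.79. Without fraction 13 of gradient 1, 48 of the 213 shortest genes were lower and 0 higher, with a median of -0.74. Coding length is that of the longest annotated coding sequence of a gene. By the shortest one, an alternative added after seeing the data, 752 genes had fewer than 100 codons, of which 157 were lower (20.9%) and 0 higher in limma (280 and 24 at an unadjusted p under 0.05, and 313 and 28 with the block). Their median was -0.44. From 100 to under 200 codons the median was then -0.19.

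**Figure D1:**
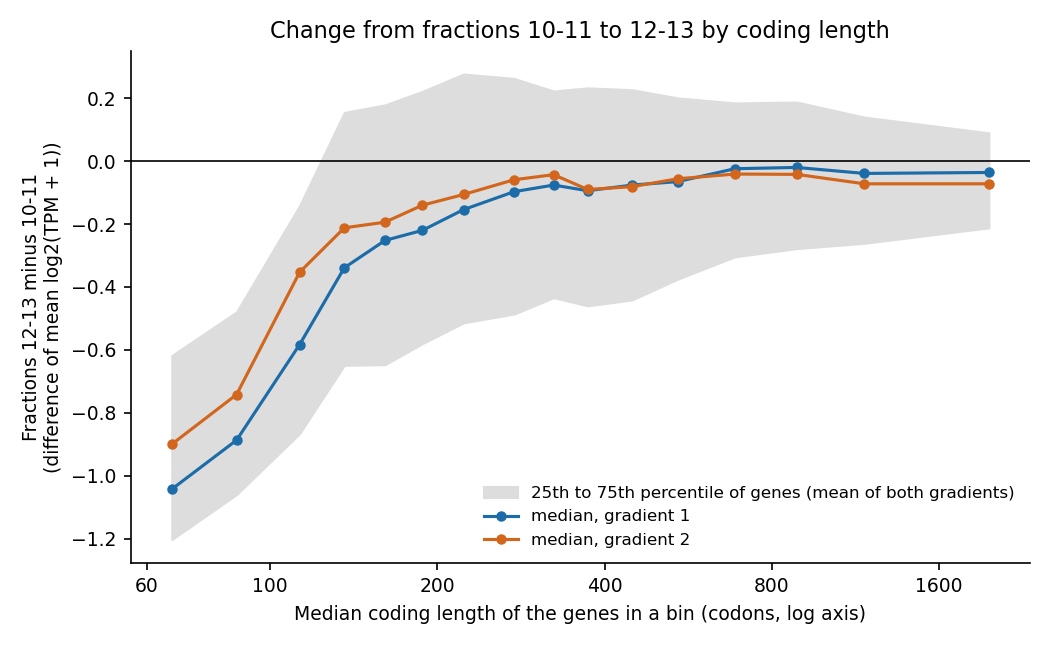
Median change from fractions 10-11 to 12-13 (vertical axis, difference of mean log2(TPM + 1)) of protein-coding genes in bins of coding length (horizontal axis, codons, log axis), for each gradient, with the 25th to 75th percentile of the genes in gray. The median of the shortest bin was -1.04 in gradient 1 and -0.90 in gradient 2, and both curves flattened near 0 above about 300 codons.

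Bins of coding length showed where the slope lay. The 70 genes with fewer than 75 codons had a median change of -0.979, and the 143 genes from 75 to under 100 codons one of -0.819. It was -0.435 from 100 to under 125 codons, -0.301 from 125 to under 150 codons and -0.198 from 175 to under 200 codons. Above that the medians changed little, from -0.146 at 200 to under 250 codons to -0.062 at 300 to under 350 codons. Across genes, which are not independent replicates, Spearman's rho of coding length and change was 0.333 in gradient 1 and 0.289 in gradient 2 for the 1491 genes under 200 codons. For the 9295 longer genes it was 0.0643 and 0.00237. All genes share the same libraries in these values.

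Coding length and the length of the whole transcript were set side by side. Among genes with fewer than 100 codons, the median change was -0.87 for 118 genes with transcripts under 1000 bases, -0.98 for 49 genes with 1000 to under 2000 bases and -0.66 for 46 genes with 2000 bases or more. In the longest of these groups 16 genes were lower and none higher, and with the block 30 were lower and none higher. Among genes with 100 to under 200 codons, the medians for the same transcript lengths were -0.30, -0.24 and -0.36, and among genes with 200 to under 400 codons they were -0.10, -0.00 and -0.15. In this last class the medians therefore differed by transcript length at least as much as by coding length. The 39 genes that were higher in fractions 12-13 had from 135 to 507 codons, with a median of 204, and the 494 coding genes that were lower and have a coding length had from 37 to 2234, with a median of 201.5. With the block, the genes that were higher and have a coding length had from 90 to 3678 codons, with a median of 375. Median GC content of the coding sequence was 52.0% for the genes that were higher, 54.0% for those that were lower and 52.7% for all protein-coding genes. Among the genes that were lower, 49.2% had fewer than 200 codons, and among those that were higher 48.7%, against 13.8% of all protein-coding genes tested. With the block these shares were 30.6% of the genes that were lower and 15.3% of those that were higher.

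**Figure D2:**
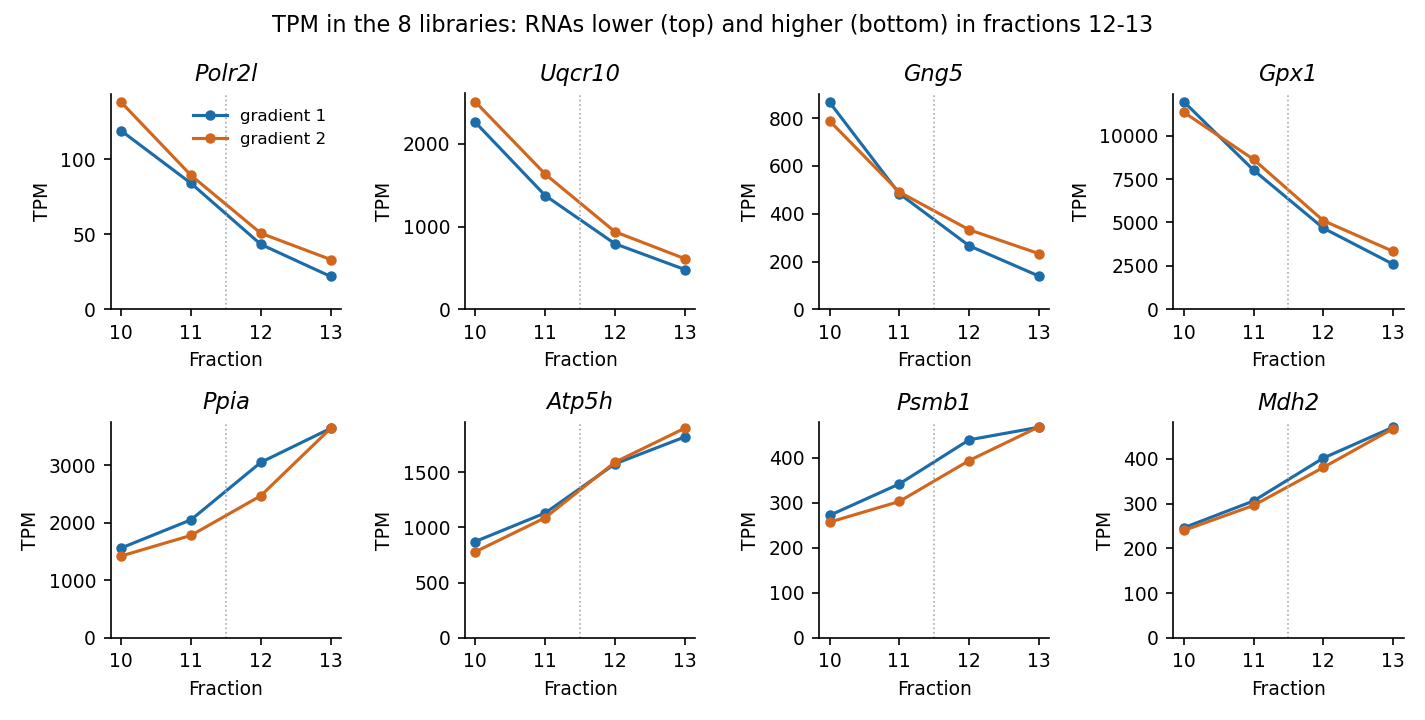
TPM (vertical axes, starting at 0) of 8 RNAs in fractions 10 to 13 (horizontal axes) of both gradients, with a dotted line between the pairs of fractions. Polr2l, Uqcr10, Gng5 and Gpx1 declined from fraction 10 to 13 in both gradients, and Ppia, Atp5h, Psmb1 and Mdh2 rose, for example Ppia from 1562 to 3642 TPM in gradient 1.

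The other genes among the 10 largest falls encode small proteins too, with few exceptions. Ndufa2, a subunit of complex I with 99 codons, had 786, 523, 303 and 172 TPM in gradient 1 and 897, 640, 381 and 216 TPM in gradient 2 (change -1.44, limma adjusted p = 0.00677). Bola2, which acts in iron-sulfur cluster handling and has 86 codons, had a change of -1.47. Smim10l1 with 89 codons had a change of -1.43, and 1110008P14Rik with 83 codons had one of -1.48. Fdx1l, a mitochondrial ferredoxin with 174 codons, had the largest fall among protein-coding genes past the threshold with a mean TPM of at least 10, -1.58, from 20.0 to 52.0 TPM in fractions 10-11 to between 7.19 and 15.3 TPM in fractions 12-13. Mrps24, a protein of the small mitochondrial ribosomal subunit with 167 codons, had a change of -1.45. Fdx1l and Mrps24 overlap other annotated genes on their own strand, with which their reads could be shared. Fdx1l, Bola2 and 1110008P14Rik did not pass without fraction 13 of gradient 1 (limma adjusted p of 0.0561 to 0.0917).

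Among protein-coding genes past the threshold with a mean TPM of at least 10, the 10 largest rises were smaller in size than the 10 largest falls, from 0.80 to 0.98. Acot13, a thioesterase of fatty acyl-CoA, had 131, 162, 241 and 338 TPM in gradient 1 and 151, 183, 273 and 403 TPM in gradient 2. Its change was 0.98 (SE 0.24, n = 2 gradients), a level 1.97-fold higher in fractions 12-13 (limma adjusted p = 0.0395). Ppia, the abundant peptidyl-prolyl isomerase cyclophilin A, had 1423 to 2052 TPM in fractions 10-11 and 2470 to 3642 TPM in fractions 12-13 (change 0.91, limma adjusted p = 0.00988). For each of the 10 genes, all 4 libraries of fractions 12-13 lay above all 4 of fractions 10-11. Nme1, a nucleoside diphosphate kinase, had a change of 0.87, Fabp5, a fatty acid binding protein, one of 0.86, and Hebp1, a heme-binding protein, one of 0.84. Of the actin and myosin system, Myl12b, a myosin regulatory light chain, had a change of 0.86 and Arpc3, a subunit of the Arp2/3 complex, one of 0.80. Eno1b, an enolase, had a change of 0.91, but it has a near-identical copy, as do Ppia and Myl12b, so the assignment of reads to them is uncertain. After quantile normalization Acot13 and Fabp5 no longer passed, nor did Fdx1l and Bola2 among the falls. Leaving out fraction 13 of gradient 1, Acot13, Fabp5, Hebp1 and Arpc3 did not pass (limma adjusted p of 0.0588 to 0.117).

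Among the most abundant RNAs of these libraries, opposite changes stood side by side. Fabp1, the liver fatty acid binding protein with 127 codons, had 32144, 44007, 64975 and 89500 TPM in gradient 1 and 26917, 37793, 52261 and 54786 TPM in gradient 2. Its change of 0.88 did not pass without the block (limma adjusted p = 0.0907) and passed with it (limma adjusted p = 0.00579). Gpx1, glutathione peroxidase, had 11954, 8015, 4673 and 2594 TPM in gradient 1 and 11349, 8629, 5102 and 3334 TPM in gradient 2 (change -1.38, limma adjusted p = 0.00511). The metallothionein RNAs differed in level between the gradients and declined in each. Mt1 had 12994, 9386, 5019 and 2123 TPM in gradient 1 and 3596, 2622, 1743 and 1049 TPM in gradient 2. Its limma adjusted p was 0.424 without the block and 0.000358 with it (change -1.47). Apoc1, a small apolipoprotein with 88 codons, had 15094 to 29230 TPM in fractions 10-11 and 7485 to 18808 TPM in fractions 12-13. Its change of -0.88 had an adjusted p of 0.298 in limma, and of 0.0167 with the block. These genes were chosen for their level after their values were seen.

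RNAs for the machinery of oxidative phosphorylation changed in both directions, and most falls were of RNAs for short subunits. Complex I oxidizes NADH, complexes II to IV pass electrons on, and ATP synthase makes ATP. Of 46 RNAs of complex I subunits and assembly factors, 10 were lower (21.7%, against 4.61% of all genes) and 1 higher (2.17%, against 0.343%) in fractions 12-13, with a median change of -0.06 (-0.13 in gradient 1 and 0.16 in gradient 2). Of 44 RNAs of the other complexes, 8 were lower (18.2%) and 4 higher (9.09%), with a median of 0.20. With the block the counts were 13 lower (28.3%) and 12 higher (26.1%) for complex I and 13 lower (29.5%) and 13 higher (29.5%) for the rest, against 16.7% and 7.05% of all genes. The 6 complex I RNAs with fewer than 100 codons had a median of -1.19, and 4 of them were lower. Of the 25 with 150 codons or more, 3 were lower and 1 higher (4 lower and 11 higher with the block), with a median of 0.37. Without fraction 13 of gradient 1 and without the block, 6 were lower and 0 higher for complex I, with a median of 0.04, and 3 were lower and 2 higher for the rest, with a median of 0.29. The 14 RNAs of complexes II to IV and ATP synthase with fewer than 100 codons had a median of -0.95, and 7 of them were lower (12 with the block). They include Cox8a and Cox7c, small subunits of cytochrome c oxidase, with changes of -1.43 and -1.07, Uqcr11 of complex III with -1.04, and Atp5e of ATP synthase with -0.81. The 18 with 150 codons or more had a median of 0.38, and 3 of them were higher (9 with the block), which were Atp5h (0.84), Uqcrc2 (0.61) and Sdhc (0.60).

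**Figure D3:**
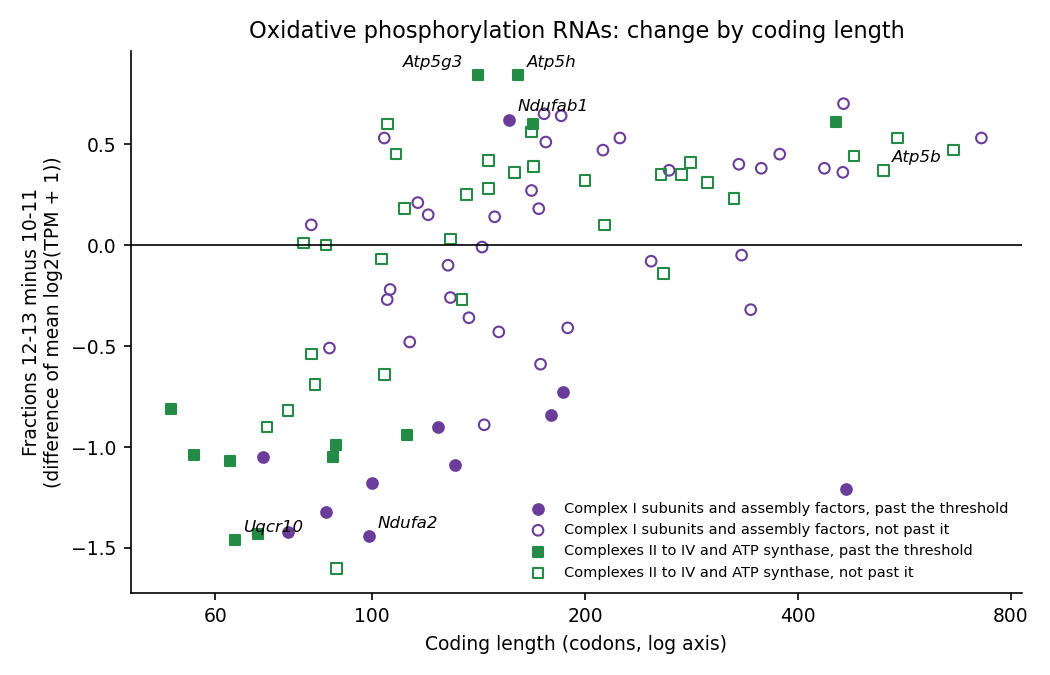
Change from fractions 10-11 to 12-13 (vertical axis, difference of mean log2(TPM + 1)) of 90 oxidative phosphorylation RNAs against coding length (horizontal axis, codons, log axis), with filled points for genes past the adjusted p of 0.05 without the block. Falls lie mostly at the short end, such as Uqcr10 with 64 codons, and the 5 rises that passed have from 141 to 453 codons.

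Within one enzyme, subunit RNAs moved in opposite directions. Atp5h, the d subunit of ATP synthase with 161 codons, had 872, 1130, 1575 and 1819 TPM in gradient 1 and 779, 1087, 1590 and 1898 TPM in gradient 2 (change 0.84, limma adjusted p = 0.0125). Atp5g3, a gene for its c subunit with 141 codons, had a change of 0.84 (limma adjusted p = 0.0168). Atp5e and Atp5j2, with 52 and 88 codons, were lower, with changes of -0.81 and -1.05. Atp5b, the catalytic beta subunit with 529 codons, had 2028 to 2561 TPM in fractions 10-11 and 2677 to 3265 TPM in fractions 12-13. Its change of 0.37 had a limma adjusted p of 0.166, and of 0.0288 with the block. In complex I, Ndufab1, the mitochondrial acyl carrier protein with 156 codons, was higher (change 0.62, limma adjusted p = 0.0371, and 0.0649 without fraction 13 of gradient 1). Ndufv3 was lower (-1.21) although its longest annotated coding sequence has 468 codons, and its shortest has 86. Over the 90 RNAs, Spearman's rho of coding length and change was 0.641 in gradient 1 and 0.561 in gradient 2, as a description across genes that share these libraries.

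Mitochondrial ribosomal proteins and import factors had falls at short coding sequences and also at longer ones. Of 78 RNAs of mitochondrial ribosomal proteins, 10 were lower (12.8%, against 4.61% of all genes) and none higher in limma, with 17 lower and 14 higher at an unadjusted p under 0.05. With the block 17 were lower (21.8%, against 16.7% of all genes) and 10 higher (12.8%, against 7.05%). Their median change was 0.12. The 3 with fewer than 100 codons, Mrps21, Mrpl34 and Mrpl33, were all lower with and without the block, with changes of -1.25, -1.11 and -1.09. The other 7 falls were 4 of 20 RNAs with 100 to under 150 codons and 3 of 55 with 150 codons or more. Of 22 import RNAs, 7 were lower (31.8%) and none higher in limma, and 0 were higher at an unadjusted p under 0.05. With the block 12 were lower (54.5%) and 1 higher. Of the import RNAs with fewer than 100 codons, 4 of 7 were lower (6 with the block). From 100 to under 150 codons 2 of 4 were lower (4 with the block), and at 150 codons or more 1 of 11 (2 with the block). The falls that passed were Timm8b (-1.36), Timm8a1 (-1.34), Timm13 (-1.28) and Timm10b (-1.03), which encode small chaperones of the intermembrane space, Tomm6 (-1.28) and Tomm22 (-1.05) of the outer membrane pore, and Timm23 (-0.73) of the inner membrane. Timm10, another small chaperone with 90 codons, had 51.4 to 113 TPM in fractions 10-11 and 93.5 to 136 TPM in fractions 12-13, and its change of 0.50 passed only with the block (limma adjusted p = 0.0465, against 0.306 without it).

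Among mitochondrial carriers, falls lay at longer coding sequences. These membrane proteins of the SLC25 family move metabolites across the inner membrane, and the coding sequences of the 38 measured RNAs have a median of 318 codons. Of these, 5 were lower (13.2%, against 4.61% of all genes) and none higher in limma, where 8 were lower and 1 higher at an unadjusted p under 0.05. With the block 13 were lower (34.2%, against 16.7% of all genes) and 2 higher. The 5 were Slc25a16 (-1.21), Slc25a39 (-0.91), Slc25a23 (-0.89), Slc25a38 (-0.80) and Slc25a44 (-0.67), with 326 to 467 codons each. Slc25a16 had 78.4, 49.4, 33.2 and 19.0 TPM in gradient 1 and 90.2, 61.2, 40.7 and 27.0 TPM in gradient 2.

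Enzymes of the mitochondrial matrix were on the other side. For all 18 RNAs of the tricarboxylic acid (TCA) cycle the change was positive in both gradients, from 0.23 to 0.66 with a median of 0.40. The 3 that passed were Mdh2, malate dehydrogenase (0.66, limma adjusted p = 0.00999), Fh1, fumarate hydratase (0.55, limma adjusted p = 0.0268), and Idh3g, a subunit of isocitrate dehydrogenase (0.44, limma adjusted p = 0.0484). Mdh2 had 246, 306, 402 and 471 TPM in gradient 1 and 240, 296, 381 and 468 TPM in gradient 2, so the gradients nearly coincided. All 22 RNAs of fatty acid oxidation had a positive change in both gradients, with a median of 0.47, and 0 passed in limma without the block, where 7 had an unadjusted p under 0.05. With the block, 17 of the 22 were higher (77.3%, against 7.05% of all genes) and 0 lower, and 11 of the 18 TCA cycle RNAs were higher (61.1%) and 0 lower. Without fraction 13 of gradient 1, 1 TCA cycle RNA passed without the block, and the medians were 0.38 and 0.43.

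RNAs for proteasome subunits, which form the protease that degrades ubiquitin-tagged proteins, had a positive median too. All 38 had a positive change in both gradients, from 0.10 to 0.75 with a median of 0.47 (0.50 in gradient 1 and 0.45 in gradient 2). In limma 3 were higher without the block (7.89%, against 0.343% of all genes), and 23 were higher (60.5%, against 7.05%) and 0 lower with it. Without fraction 13 of gradient 1 none passed, with a median of 0.43. Psmb1, a beta subunit of the core, had 272, 342, 440 and 468 TPM in gradient 1 and 257, 303, 394 and 469 TPM in gradient 2 (change 0.60, limma adjusted p = 0.0334). Psmd13, of the regulatory lid, had 63.5 to 87.6 TPM in fractions 10-11 and 97.8 to 135 TPM in fractions 12-13 (change 0.62, limma adjusted p = 0.0283), and Psma5, an alpha subunit of the core, had a change of 0.68 (limma adjusted p = 0.0452). Psma1 (0.41), Psmc5 (0.45) and Adrm1 (0.37) did not pass without the block, and with it Adrm1 passed (limma adjusted p = 0.0279) while Psma1 (0.0516) and Psmc5 (0.0906) did not. The coding sequences of the 38 have a median of 294 codons.

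Some other lists had medians near those of the proteasome. The median was 0.36 for the 8 subunits of the CCT chaperonin, which folds actin and tubulin, 0.39 for 22 aminoacyl-tRNA synthetases, 0.39 for 16 enzymes of glycolysis and gluconeogenesis, and 0.33 for 30 SR and hnRNP proteins, which bind RNA in splicing. In limma without the block, 0 members of the first 3 lists passed, with 6, 7 and 3 members higher and 0 lower at an unadjusted p under 0.05. With the block, 5, 8 and 10 of them were higher (62.5%, 36.4% and 62.5%, against 7.05% of all genes) and 0 lower (against 16.7%). Of the SR and hnRNP RNAs, Srsf9 was lower (-0.71, limma adjusted p = 0.0144) and none was higher without the block, where 9 were higher at an unadjusted p under 0.05. With the block 13 were higher (43.3%, against 7.05% of all genes) and 1 lower (3.33%, against 16.7%). RNAs of 60 translation factors had a median of 0.10. In limma 1 was lower (1.67%, against 4.61% of all genes) and 0 higher, with 7 lower and 10 higher at an unadjusted p under 0.05. With the block 7 were lower (11.7%, against 16.7% of all genes) and 11 higher (18.3%, against 7.05%). The 1 was Eif4ebp2 (-0.73, limma adjusted p = 0.023), which encodes an inhibitor of cap-dependent initiation with 120 codons. Neither Srsf9 nor Eif4ebp2 passed without fraction 13 of gradient 1 (limma adjusted p of 0.0826 and 0.094). Of 53 actin, myosin and motor protein RNAs (median 0.15), 0 passed in limma, with 4 higher and 2 lower at an unadjusted p under 0.05. With the block 7 were higher (13.2%, against 7.05% of all genes) and 2 lower (3.77%, against 16.7%). A list of 31 metallothioneins and small lipid-binding proteins had a median of -0.37 (-0.48 in gradient 1, -0.15 in gradient 2, and -0.20 without fraction 13 of gradient 1). Of these, 1 was higher (Fabp5) and 0 lower in limma (5 higher and 0 lower at an unadjusted p under 0.05). With the block 5 were higher (16.1%, against 7.05% of all genes) and 8 lower (25.8%, against 16.7%). Cytosolic ribosomal proteins had a median of -0.07. Of these 81 RNAs, 7 were lower (8.64%, against 4.61% of all genes) and none higher in limma, with 11 lower and 2 higher at an unadjusted p under 0.05. With the block 13 were lower (16.0%, near the 16.7% of all genes) and 2 higher. The 7 encode small proteins of at most 115 codons, among them Rps27l (-1.34), Rps29 (-1.22), Rps28 (-1.10) and Rpl41 (-1.07), and the 43 ribosomal protein RNAs with 150 codons or more had a median change of 0.00.

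**Figure D4:**
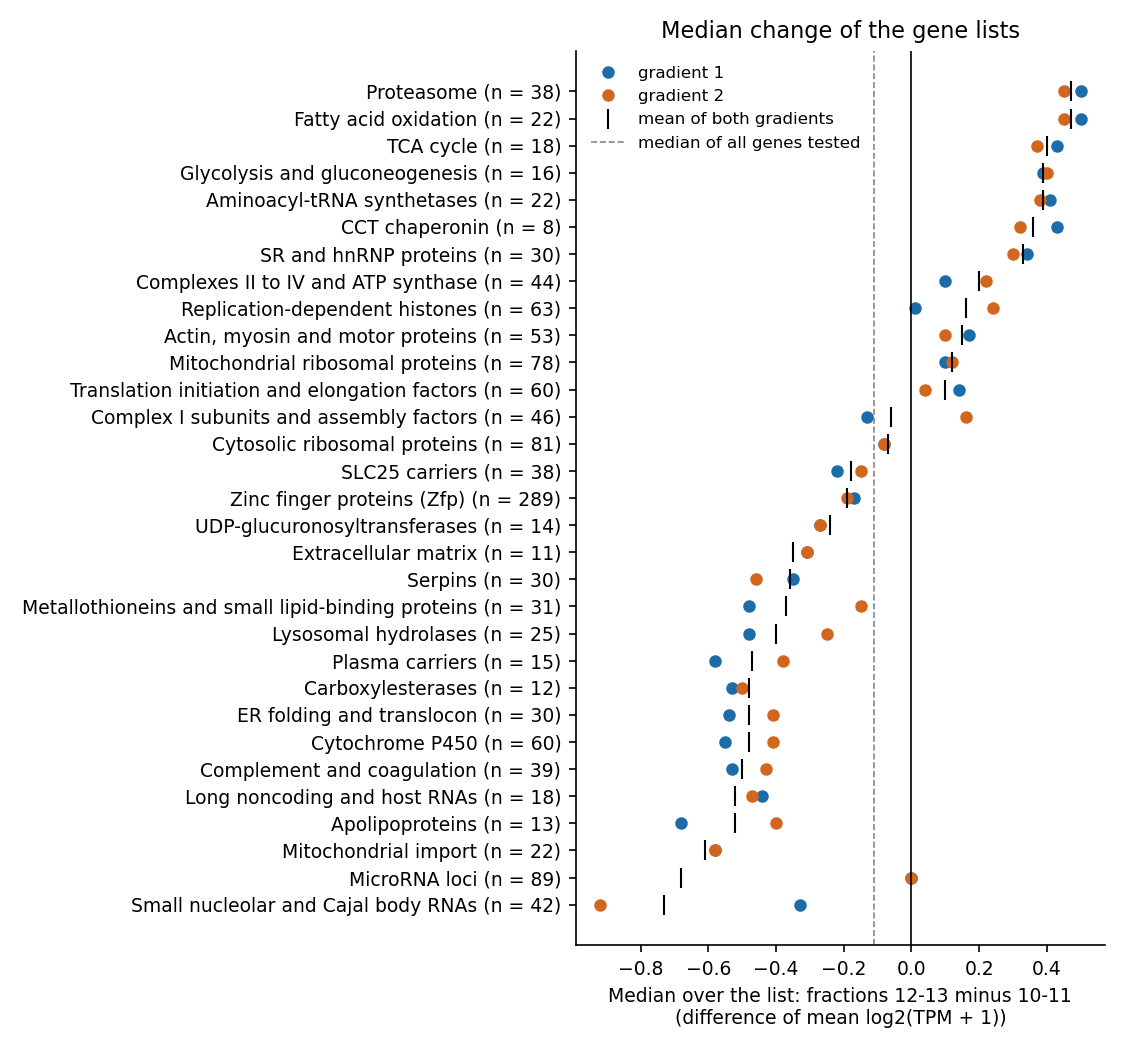
Median change from fractions 10-11 to 12-13 (horizontal axis, difference of mean log2(TPM + 1)) of each gene list, with the number of genes tested, for gradient 1 and gradient 2 and for the mean of both (bars). Proteasome and fatty acid oxidation RNAs had the highest median, 0.47, and lists of secretory and ER proteins had medians from -0.52 to -0.24, against -0.11 for all genes.

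RNAs for secreted and ER proteins had negative medians and few calls. Medians were -0.52 for 13 apolipoproteins, -0.50 for 39 complement and coagulation factors, -0.47 for 15 plasma carriers, -0.48 for 60 cytochrome P450 enzymes, -0.48 for 30 ER folding and translocon proteins, -0.40 for 25 lysosomal hydrolases and -0.36 for 30 serpins. Smaller lists had medians of -0.48 for 12 carboxylesterases, -0.35 for 11 extracellular matrix genes and -0.24 for 14 UDP-glucuronosyltransferases. After quantile normalization the medians were closer to 0 for several lists, among them lysosomal hydrolases (-0.21), extracellular matrix genes (-0.13) and UDP-glucuronosyltransferases (-0.11). Over the 249 members of all these lists, 2 were lower in limma (0.803%, against 4.61% of all genes) and none higher (against 0.343%). At an unadjusted p under 0.05, 14 were lower and 0 higher. With the block 16 were lower (6.43%, against 16.7% of all genes) and 0 higher. The 2 were Apoc4, an apolipoprotein of 124 codons (-0.92, limma adjusted p = 0.0371, and 0.113 without fraction 13 of gradient 1), and Cyp4a32, a fatty acid hydroxylase (-0.74, limma adjusted p = 0.0215). Cyp4a32 did not pass after quantile normalization, nor Apoc4 with TPM rescaled without the 50 most abundant genes. Alb, serum albumin, had 4538, 2955, 2644 and 2562 TPM in gradient 1 and 5709, 4234, 3698 and 3489 TPM in gradient 2. Its change was -0.47 (SE 0.40, limma adjusted p = 0.595, and 0.370 with the block). Most of that difference lay between fractions 10 and 11. Within each gradient both libraries of fractions 10-11 were above both of fractions 12-13. Across the gradients, the lowest library of fractions 10-11 (2955 TPM, gradient 1) was below the highest of fractions 12-13 (3698 TPM, gradient 2). Apob, the protein of very low density lipoproteins (-0.52, limma adjusted p = 0.384), and Fn1, fibronectin (-0.55, limma adjusted p = 0.247), did not pass either, and with the block their limma adjusted p were 0.0593 and 0.0687. From 200 codons upward their medians were -0.46, -0.48 and -0.33 for 44, 162 and 24 genes in the classes of rising coding length. Without all these genes, the medians of the length classes were -0.87, -0.30, -0.09, -0.03 and -0.04, from the shortest to the longest.

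Genes not annotated as protein-coding had a median change of -0.49. Some of these 570 genes matched no annotation, and some are pseudogenes with an annotated coding sequence. In limma 27 were lower (4.74%, against 4.61% of all genes) and none higher, with 129 lower and 5 higher at an unadjusted p under 0.05. With the block 122 were lower (21.4%, against 16.7% of all genes) and 2 higher. Without the block, the share that was lower was therefore near that of all genes. The largest falls with a mean TPM of at least 10 were the long noncoding RNAs 2210417A02Rik (-1.44) and 1810058I24Rik (-1.40) and the pseudogene Gm12338 (-1.43). The RNA 1810058I24Rik had 268 to 451 TPM in fractions 10-11 and 102 to 166 TPM in fractions 12-13 (limma adjusted p = 0.00565). Snhg3, a host of small nucleolar RNAs, had 8.39 to 17.6 TPM in fractions 10-11 and 3.21 to 4.65 TPM in fractions 12-13 (change -1.42, limma adjusted p = 0.0282). Scarna13, a guide RNA of Cajal bodies inside another host gene, was lower (-1.16, limma adjusted p = 0.0399). Of these, 2210417A02Rik, Gm12338, Snhg3 and Scarna13 did not pass without fraction 13 of gradient 1 (limma adjusted p of 0.0666 to 0.239). Very short RNAs had unsteady values. The median change of 42 small nucleolar and Cajal body RNAs was -0.73, with -0.33 in gradient 1 and -0.92 in gradient 2, and that of 89 microRNA loci was -0.68 on the mean of both gradients but 0.00 within each. Mir25, a microRNA locus inside Mcm7, passed the test with 32.2 and 24.3 TPM in fraction 11 of the 2 gradients, but it was listed at 0 in the other 6 libraries. Of 289 zinc finger (Zfp) RNAs, 5 were lower (1.73%, against 4.61% of all genes) and none higher in limma. At an unadjusted p under 0.05, 32 of the 289 were lower and 1 higher, beside 1619 lower and 552 higher of all 11373 genes. The 5 were led by Zfp664 (-0.94, limma adjusted p = 0.00988). With the block 30 were lower (10.4%, against 16.7% of all genes) and 1 higher. Their median was -0.19, and 0.00 after quantile normalization. Of 63 replication-dependent histone RNAs 0 passed in limma, with 1 higher and 3 lower at an unadjusted p under 0.05. With the block 3 were higher (4.76%, against 7.05% of all genes) and 2 lower (3.17%, against 16.7%). Their median was 0.16, with 0.01 in gradient 1 and 0.24 in gradient 2, and 0.27 without fraction 13 of gradient 1.

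The genes that changed here were at different points of their course through the gradient. Over the 8 pairs of fractions from 4-5 to 18-19, 283 of the 524 genes that were lower in fractions 12-13 had their highest mean in fractions 8-9 (54.0%), against 17.4% of all genes tested, and 74 in fractions 10-11. A gene chosen for a lower mean in fractions 12-13 cannot have its highest mean there, and one chosen for a higher mean in fractions 12-13 cannot have it in fractions 10-11, so these counts are partly fixed by the choice and are a description. Of the 39 that were higher, 7 had their highest mean in fractions 12-13, 14 in fractions 14-15, 8 in fractions 16-17 and 10 in fractions 18-19. Of the 802 that were higher with the block, 82, 157, 188 and 351 had their highest mean in these pairs, so that 43.8% were highest in fractions 18-19. The 213 genes with fewer than 100 codons had their highest mean in fractions 8-9 for 86 genes and in fractions 10-11 for 67 genes. In gradient 1 their median TPM relative to a gene's mean over fractions 4 to 19 went from 1.79 in fraction 10 to 0.635 in fraction 13, and in gradient 2 from 1.76 to 0.754. Members of the secretory lists went from 0.855 to 0.469 in gradient 1 and from 0.908 to 0.600 in gradient 2, after their highest level in fraction 5, while proteasome RNAs went from 0.803 to 1.32 and from 0.859 to 1.37.

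**Figure D5:**
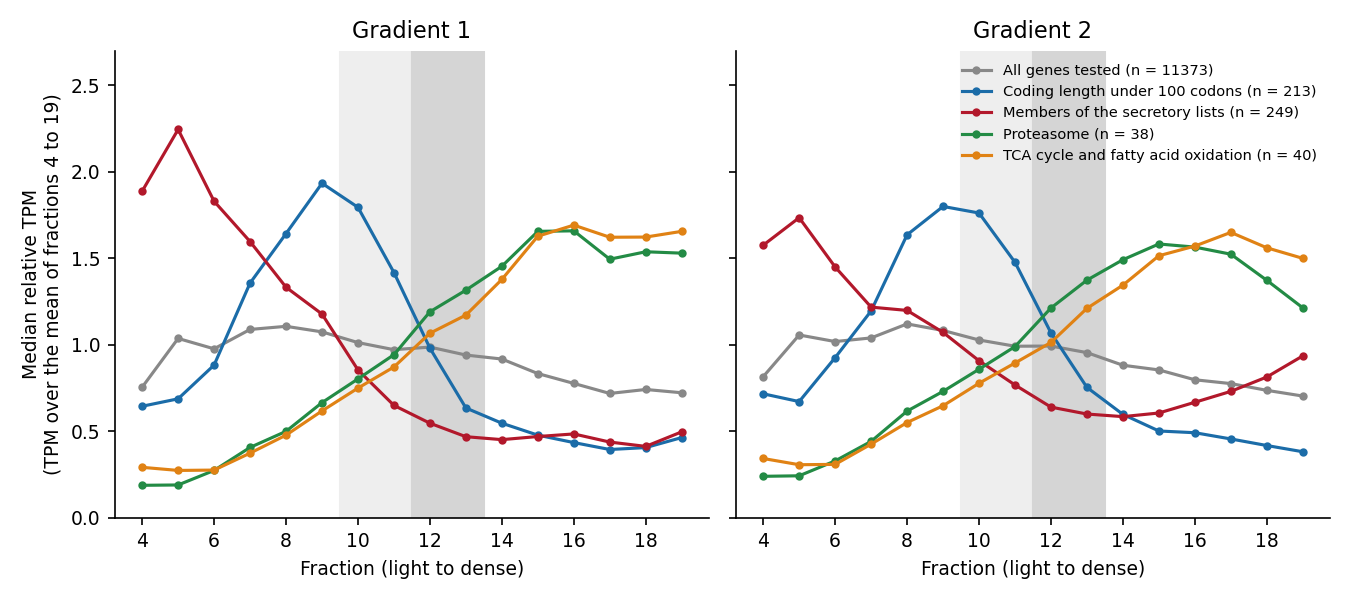
Median relative TPM (vertical axis, TPM divided by the gene's mean over fractions 4 to 19) against fraction number (horizontal axis, light to dense) for 5 sets of genes in each gradient, with fractions 10-11 in light gray and 12-13 in darker gray. The median of RNAs with fewer than 100 codons was highest at fraction 9 and lower at each step across both pairs, and the medians of proteasome, TCA cycle and fatty acid oxidation RNAs were higher in fractions 12-13 than in 10-11.

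The step from fractions 10-11 to 12-13 was tested against a lighter and a denser step that share no library with it. It differed from the step from fractions 6-7 to 8-9 for 879 genes in limma (7.73%), where 775 values were lower here (6.81%) and 104 higher (0.914%), and for 2763 genes with the block (24.3%, with 20.1% lower and 4.19% higher). For genes with fewer than 100 codons the earlier step had a median of 0.67, against -0.87 here, although 30 of these genes had their highest mean in fractions 4-5 and 20 in fractions 6-7, and 116 of the 213 differed with a more negative value here (149 with the block). RNAs of complexes II to IV and ATP synthase had a median of 1.02 in the earlier step, and 18 of 44 differed with a more negative value (26 with the block). For cytosolic ribosomal proteins it was the reverse, with a median of -1.31 in the earlier step and -0.07 here, and 34 of 81 differed with a more positive value (66 with the block). No gene differed from the step from fractions 14-15 to 16-17 in limma without the block, where 958 had an unadjusted p under 0.05, and with the block 617 differed (5.43%, with 2.57% lower and 2.86% higher). For genes with fewer than 100 codons that later step had a median of -0.24. With the block, 57 of the 213 differed from it with a more negative value here and 2 with a more positive one.

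Hepatocyte markers summed to far higher levels than markers of the other cell types of liver in all 8 libraries. The summed TPM of 11 hepatocyte markers ran from 13058 to 20481 in fractions 10-11 and from 13453 to 21942 in fractions 12-13. Their median change was -0.34, with 7 of the 11 negative and 4 positive in both gradients. For 11 Kupffer cell markers it ran from 119 to 133 and from 89.5 to 113, for 10 endothelial markers from 51.4 to 82.6 and from 39.5 to 58.5, and for 8 of 9 stellate cell markers from 52.4 to 62.0 and from 47.4 to 53.2. Summed TPM of 5 of 9 erythroid markers went from between 479 and 763 to between 262 and 458, and of 4 of 6 cholangiocyte markers from between 3.12 and 5.02 to between 3.72 and 5.93. In limma 0 of the markers passed without the block, and 1 hepatocyte marker and 3 erythroid markers had an unadjusted p under 0.05. With the block 4 of the 11 hepatocyte markers were higher (36.4%, against 7.05% of all genes) and 0 lower. With it, 1 of 11 Kupffer cell, 1 of 8 tested endothelial and 3 of 5 erythroid markers were lower, against 16.7% of all genes. Of the markers in both tables, none was at 0 in all 8 libraries. All fractions of a gradient come from 1 homogenate and so from the same cells, and the part of cell types in the other values was not tested.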

How the data were processed

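After ribosomal RNA was removed, the authors made strand-specific libraries, assigned reads to mm10 RefSeq transcripts by pseudo-alignment in Kallisto, and deposited 1 table of TPM by gene symbol per gradient. A gene is in a table if its TPM passed 1 in any fraction. The submitters' processing notes also name bcl2fastq 2.16.0.10. The version of Kallisto and how transcripts were summed to genes are not given in the sources used here. The number of value columns that matched no sample was 0.

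From these values, log2(TPM + 1) was averaged over the fractions of each of 8 pairs, 4-5 to 18-19, in both gradients. The 16 means, from 32 libraries, were fitted with limma (trend in eBayes, two-sided, Benjamini-Hochberg over all genes tested, threshold 0.05), so that each gene's spread between gradients was estimated from 8 pairs. Without the block, p-values set a change against the spread between these 2 gradients over the 8 pairs. With the block, a gene's mean offset between the gradients is removed first, and p-values rest on the spread that remains. Neighboring fractions of 1 gradient were not treated as replicates. For the pairing, deviations of the gradients from their mean in fractions 10-11 and in fractions 12-13 correlated across genes (r = 0.739, and 0.379 to 0.769 over all 28 pairs of groups). The fits were tested on simulated data with known changes.

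Coding length was meant to come from RefSeq proteins, which were not used here. It is the longest coding sequence of a gene's basic transcripts in GENCODE M21 (GRCm38), to which 11301 of the tested genes matched and 72 did not. Named genes are the 10 largest rises and 10 largest falls of coding genes and the 3 largest of other genes, among genes past the threshold that moved alike in the gradients and averaged 10 TPM or more over the 8 libraries. The largest called rise and fall of each list and the genes shown as profiles in the study (Alb, Apob, Fn1, Psma1, Psmb1, Psmc5, Adrm1, Atp5b, Psmd13) were added, and so were the other genes named within a list, which were chosen after their values were seen. Members, lists and tests were chosen with earlier results of these data known. Alternatives were the pseudocount, filters, scaling, the replicate block, the samples in the fit, the border and numbering of fractions, and leaving out libraries. Tools were Python 3.11.15, NumPy 2.4.6, pandas 2.3.3, Matplotlib 3.10.9, R 4.3.3 and limma 3.58.1.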

Additional observations from a re-analysis of the deposited data

How the results depend on the processing

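The count of 563 genes stayed within 1.5 times under another pseudocount (533), other filters (538 and 660) and both other scalings (459 and 592). With the replicate block it was 2699, and the difference from the step between fractions 6-7 and 8-9 went from 879 to 2763 genes and that from the step between fractions 14-15 and 16-17 from 0 to 617. Of the named genes chosen by the rule, 44 of 46 stayed on the same side of the threshold with the block and 2 passed only with it. After quantile normalization 8 of the 46 no longer passed (Acot13, Fabp5, Fdx1l, Bola2, Ndufab1, Eif4ebp2, Cyp4a32 and Srsf9), with a pseudocount of 0.1 2 (Fdx1l and Snhg3), without a filter 1 (Psma5) and with TPM rescaled 1 (Apoc4). A fit of only the 4 means called 0 genes without the block (1966 at an unadjusted p under 0.05) and 5517 with it. Fraction 12 against 11 gave 1 call, and fraction 13 against 10 gave 2372, of which 561 were among the 563. In that last fit the change of Mir25 was 0.0, since it is listed at 0 in both fractions. With gradient 2 shifted by 1 fraction to the light or the dense side, 0 genes passed in limma (1054 and 1484 at an unadjusted p under 0.05), so that 39 of the 46 named genes lost their call and the other 7 had none. The sources used here do not say whether a fraction number has the same density in both gradients. Leaving out 1 gradient from 1 of the pairs gave 0 to 174 calls, which was 0 without gradient 1 or gradient 2 in fractions 10-11 and without gradient 1 in fractions 12-13 (1356 to 1509 at an unadjusted p under 0.05), and 174 without gradient 2 in fractions 12-13. The lone sample is then assumed to vary like the other pairs. Without fraction 13 of gradient 1, an alternative added after seeing the data, 245 genes passed, with fraction 12 alone for fractions 12-13 in that gradient. The genes lower and higher then went from 152 and 19 to 76 and 8 from 100 to under 200 codons, from 137 and 16 to 56 and 2 from 200 to under 400, from 92 and 4 to 35 and 1 from 400 to under 800, and from 25 to 6 lower at 800 or more. Genes lower went from 5 to 3 for SLC25 carriers, from 7 to 4 for cytosolic ribosomal proteins and from 5 to 2 for Zfp RNAs. The 1 call of each of 6 lists was lost (Srsf9, Eif4ebp2, Apoc4, Scarna13, Snhg3 and Fabp5), and of the 39 named genes that passed, 20 still did. Over 37 lists, the median changed sign for 2 after quantile normalization (Zfp RNAs and cholangiocyte markers) and for 0 with TPM rescaled or a pseudocount of 0.1. Depth is unknown, so low values have no counting error.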
